A study of Homo sapiens
Mus musculus with 17 samples.

Results

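Alpelisib plus nintedanib was compared with vehicle in tumours that athymic nude mice grew from VM-CUB-1, an established line of human bladder cancer cells. The comparison takes the 4 tumours given both drugs and the 4 given vehicle, 8 of the 17 libraries of the series, chosen by their treatment label. Treatment lasted 7 days in every group. Both drugs meant alpelisib at 25 mg/kg together with nintedanib at 40 mg/kg, and the vehicle was 0.5% methylcellulose with 0.1% Tween80. The other 9 libraries, 4 of alpelisib alone and 5 of nintedanib alone at the same doses, entered the estimate of the spread and the comparisons with each drug alone. The series text calls the xenografts nintedanib-resistant and is concerned with synergy of the pair of drugs in animals. Every mouse was of the strain Hsd:Athymic Nude-Foxn1nu, which has no thymus and few mature T cells but keeps natural killer and myeloid cells. All tumours came from 1 cell line, although the source label reads PDX. The labels do not say that the tumours came from separate mice, so the p-values measure the spread between these libraries only, which may be technical.

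Alpelisib inhibits the alpha catalytic subunit of phosphoinositide 3-kinase (PI3K), a lipid kinase that carries growth factor signals to AKT and mTOR. When AKT is less active, FOXO transcription factors stay in the nucleus and switch on their targets, which include genes that feed back on receptor signalling. Nintedanib inhibits the receptor kinases for VEGF, PDGF and FGF. VEGF receptors on endothelial cells drive vessel sprouting, in which a leading tip cell makes apelin and the Notch ligand Dll4. Bladder cancers with basal or squamous features express the keratins and cornified envelope genes of stratified epithelium.

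Reads of whole-tumour RNA had been aligned once to human and once to mouse sequence, so human reads stand for tumour cells and mouse reads for host cells. Levels are normalised counts, read counts that the authors divided by a size factor per library. They are not corrected for length, so levels are compared between libraries and not between genes. Human reads per library were 7429753 to 25654879 in vehicle and 14802766 to 24624309 in the combination, and mouse reads were 2305198 to 6517101 and 3799289 to 7438823. Lars2 and Rn45s, a precursor of ribosomal RNA, together took 72.9% of mouse reads in vehicle 3, 60.1% in combination 4 and 42.1% in combination 1, against 2.05% to 13.7% in the other 5 tumours. Vehicle 3 and combination 4 had the highest share of their groups, and several results are also given without both. Those fits still hold combination 1, so they are not free of a high share. Outside those features, mouse reads made up 15.1% ± 2.6 of reads in the combination and 16.98% ± 2.25 in vehicle (SD, n = 4 each), for which an exact two-sided permutation test gave p = 0.343. With those features included, the shares were 22.5% ± 9.41 and 23.9% ± 11.3 (exact permutation p = 0.83). In the vehicle tumours, the list of basal adhesion genes and TP63 summed to 42979 to 159131 normalised counts. The luminal urothelial list summed to 12072 to 18576. These sums are over different genes, so they cannot check the cell line label. The luminal markers UPK3A and KRT20 did not reach the mean of 10 asked of a tested gene, while 14 of the 18 listed luminal genes did.

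In the tumour cells, the combination tumours had more KRTDAP, SPRR1B, KRT16 and KRT7, genes of squamous differentiation and keratins, and less PIGR, NPNT and PIK3R3. Of 14533 human genes tested, 46 were higher (0.317%) and 6 lower (0.0413%) at an adjusted p under 0.05, 0.358% in all. The test was limma's moderated test on log2(normalised count + 1), with Benjamini-Hochberg adjustment over all tested genes. Changes below are differences of mean log2 values (± SE), and folds are on the same log2(value + 1) scale, which understates changes of low genes. The log2 changes of the genes that passed ran from 0.92 to 3.81 upward and from -2.47 to -0.97 downward. At an unadjusted p under 0.05, 2624 genes differed (18.1%). On the recovered whole reads, edgeR's quasi-likelihood test called 40 genes, 38 of them among the 52, and DESeq2 called 491, including all 52.

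The human calls were lost when any of 6 libraries was left out. No gene passed without vehicle 1, vehicle 2, vehicle 3, combination 2, combination 3 or combination 4, where the smallest adjusted p was 0.0581, 0.127, 0.052, 0.0979, 0.113 and 0.116 in that order. Without vehicle 4, 61 genes passed, and without combination 1, 97 did. Without vehicle 3 and combination 4 together, none passed, while 46 of the 52 had a change above 0, the same number as with all tumours. The 52 were chosen from these same tumours, so this is no independent support.

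**Figure D1:**
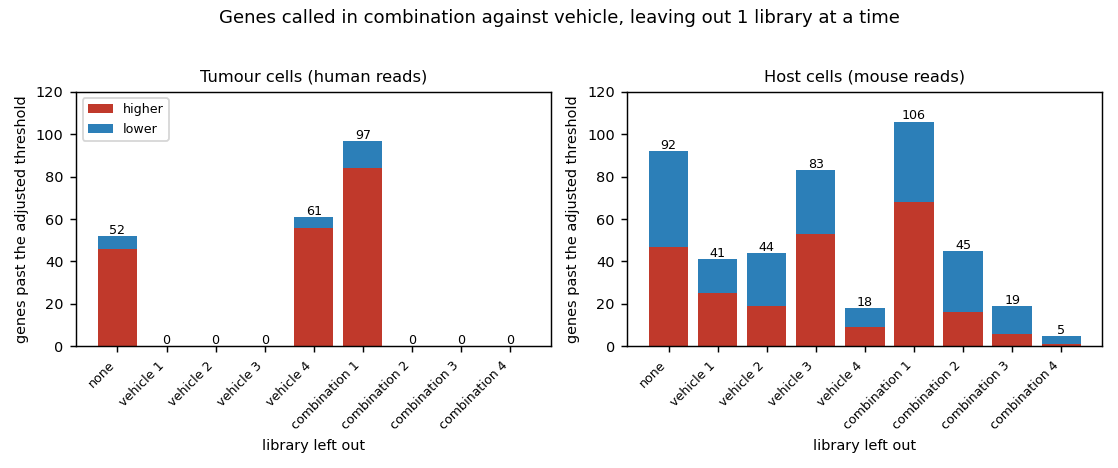
Number of genes past an adjusted p of 0.05 in combination against vehicle (vertical axis) with no library left out and with each of the 8 tumours left out in turn (horizontal axis), for human reads on the left and mouse reads on the right. The human count falls from 52 to 0 for 6 of the 8 tumours, and the mouse count stays between 5 and 106.

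The group with the highest median was late squamous differentiation, the programme by which stratified epithelium builds the cornified envelope. Of its 36 members past the expression filter, 35 had a change above 0, against 47.2% of all tested genes, and their median log2 change was 1.48 against -0.03 for all genes. The 4 combination tumours lay above all 4 vehicle tumours for 10 of the 36 members, against 5.27% of all genes. KRTDAP and SPRR1B passed the adjusted test. The list's median without vehicle 3 and combination 4 was 1.73.

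KRTDAP encodes a secreted protein of differentiating keratinocytes. It stood at 1278, 1061, 1284 and 3368 normalised counts in vehicle tumours 1 to 4 and at 8042, 15555, 16631 and 10823 in combination tumours 1 to 4. All combination values were above all vehicle values, and vehicle 4 was the highest of its group. The gene was 7.87-fold higher (2.98 ± 0.54, adjusted p = 0.0361). SPRR1B, a small proline-rich protein that is cross-linked into the envelope, measured 1613, 1897, 3481 and 5664 in vehicle and 8080.5, 15764, 21119 and 9812 in the combination. Its groups did not overlap and it was 4.57-fold higher (2.19 ± 0.47, adjusted p = 0.0499). Its relative SPRR1A just missed the threshold (2.35 ± 0.50, adjusted p = 0.0506), and the protease inhibitor PI3 had 2.27 ± 0.53 (adjusted p = 0.0809). SLURP1, a secreted Ly6-type protein of keratinocytes named by its size of change, measured 28.7, 42.4, 22.1 and 166 in vehicle and 156, 603, 853 and 345 in the combination. Vehicle 4 lay above combination 1, so the groups overlapped by that pair, and SLURP1 was 8.67-fold higher (3.12 ± 0.60, adjusted p = 0.0361).

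Keratins followed the same direction in 18 of 20 tested members (median 1.15). KRT16, a keratin of activated suprabasal cells, stood at 9080.2, 4499.9, 8652 and 17593 in vehicle and at 22622, 70955, 42807 and 38673 in the combination. Its highest vehicle value, in vehicle 4, stayed below the lowest combination value, in combination 1. KRT16 rose 4.55-fold (2.18 ± 0.46, adjusted p = 0.0485). KRT7, a simple-epithelium keratin of urothelium, rose 3.02-fold (1.59 ± 0.32, adjusted p = 0.0430), from 5142, 2749, 3623 and 5698 to 9370.2, 13265, 14907 and 13016, again without overlap. KRT17 (1.69 ± 0.38, adjusted p = 0.0661), KRT10 (1.22 ± 0.31, 0.0951) and KRT14 (1.45 ± 0.41, 0.112) did not pass, although their groups did not overlap. KRT15 had -0.96 and KRT13 -0.37, the members below 0.

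Basal adhesion genes and TP63 gave a smaller median, 0.43 with 15 of 17 above 0, and 1.01 without vehicle 3 and combination 4. It was 0.24 without vehicle 2 and 0.81 without vehicle 3. LAMB3, a laminin chain of the basement membrane, was at 3011, 1685, 8488 and 3999.5 in vehicle and 9307, 11411, 9838 and 6518 in the combination. Vehicle 3 lay within the combination range, and the change of 1.33 ± 0.46 had an adjusted p of 0.157. None of the 17 passed. Luminal urothelial genes had a median of 0.15 with 9 of 14 above 0 and none passed. FOXA1, a luminal transcription factor, measured 800.4 to 2029 in vehicle and 667 to 935 in the combination (-0.81 ± 0.30, adjusted p = 0.174), and the uroplakin UPK1A measured 12.3, 4.01, 0 and 16.03 in vehicle and 32.6, 35.4, 46.5 and 9.15 in the combination (2.25 ± 0.78, adjusted p = 0.157).

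**Figure D2:**
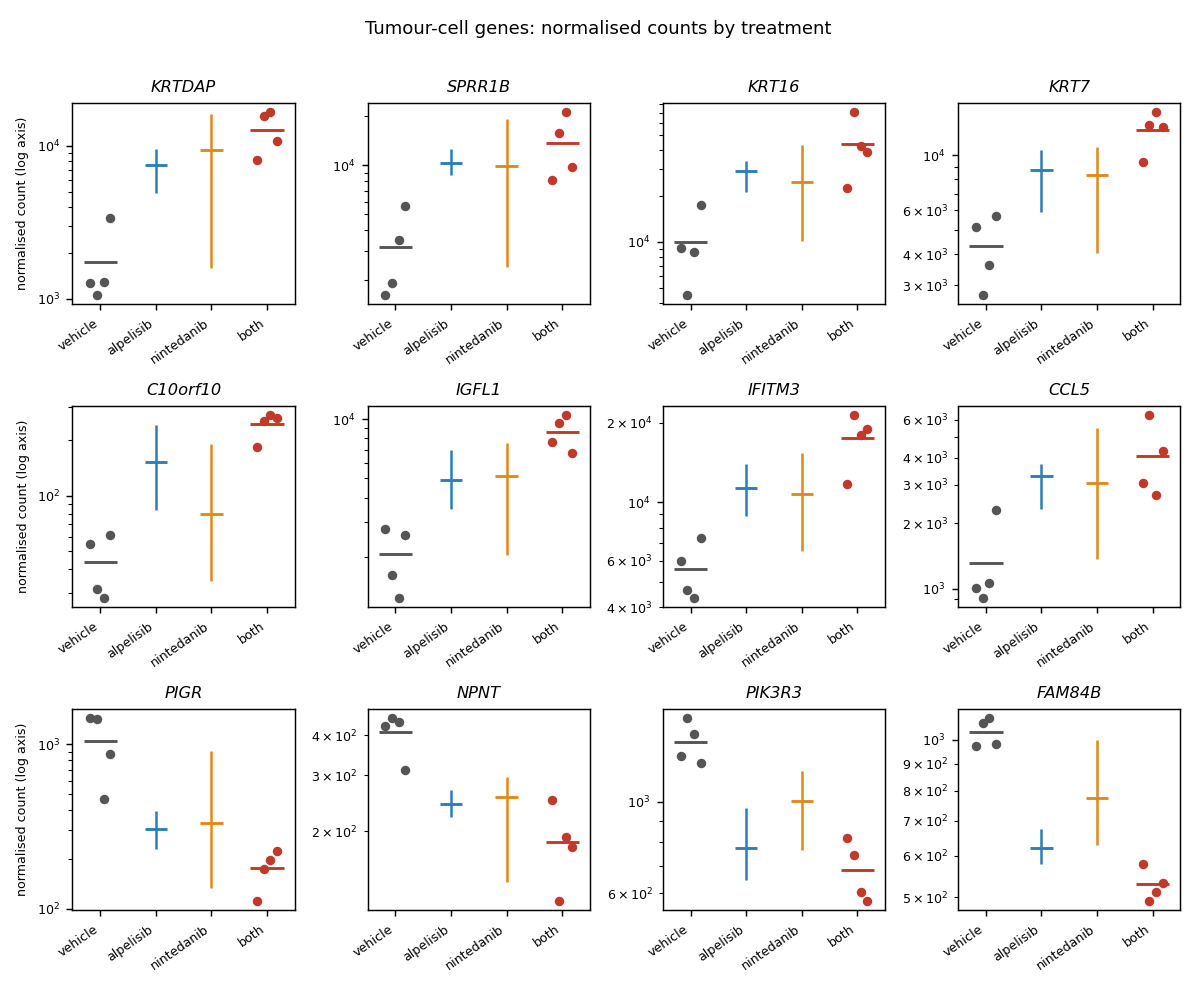
Normalised counts of 12 tumour-cell genes on log axes, by treatment. Points are single tumours of vehicle and of both drugs with their mean as a bar, and vertical lines span the lowest to the highest tumour of alpelisib alone (n = 4) and nintedanib alone (n = 5) with a tick at the mean. In all 12 panels the tumours with both drugs and the vehicle tumours occupy separate ranges.

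PIGR had the lowest log2 change of the 6 genes that fell. It encodes the receptor that carries polymeric immunoglobulins across epithelium. PIGR measured 1446, 1426, 465 and 870.4 in vehicle and 112, 174, 197 and 226 in the combination, with no overlap, and was 5.55-fold lower (-2.47 ± 0.46, adjusted p = 0.0361). NPNT, a matrix ligand of integrins, measured 429, 454, 441 and 311 in vehicle and 251, 121, 191 and 178 in the combination and was 2.25-fold lower (-1.17 ± 0.25, adjusted p = 0.0499). FAM84B measured 974, 1075, 1101 and 984 in vehicle and 579.7, 492, 513 and 532 in the combination, and was 1.95-fold lower (-0.97 ± 0.17, adjusted p = 0.0271). FAM83D, which binds the mitotic spindle, measured 844, 972, 604 and 767 in vehicle and 496, 347, 378 and 349 in the combination and was 2.02-fold lower (-1.01 ± 0.21, adjusted p = 0.0430). The remaining gene of the 6 was FAM72A, named after its values were seen, at 51.9, 59.03, 36.1 and 40.1 in vehicle and 18.5, 11.3, 7.48 and 15.7 in the combination (-1.79 ± 0.31, adjusted p = 0.0271). FAM72A has near-identical copies in the genome, so its counts are uncertain.

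No mitosis or DNA replication gene passed in human reads. Of 36 members, 29 had a change below 0, the median was -0.41, and 12 lay in the combination below all vehicle tumours, against 5.31% of all genes. AURKA, a spindle kinase, measured 1224, 1417, 919 and 1190.4 in vehicle and 769, 599, 523 and 553 in the combination (-0.96 ± 0.21, adjusted p = 0.0600), and passed in 1 of the 8 fits that left out 1 tumour. BUB1B, of the spindle checkpoint, measured 589, 638, 692 and 453 in vehicle and 404, 242, 327 and 272 in the combination (-0.94 ± 0.27, adjusted p = 0.112). The cyclin CCNB1 had -0.72 ± 0.22 (adjusted p = 0.125). The list's median was -0.25 without combination 2, with 10 of 36 above 0, and -0.47 without vehicle 3 and combination 4. It was -0.05 with alpelisib alone and -0.28 with nintedanib alone against the same vehicle tumours. CDK inhibitors and D cyclins had a median of 0.62 with 8 of 12 above 0 and none called, 0.40 without vehicle 3 and 0.28 without vehicle 3 and combination 4. CDKN1A, the inhibitor p21, measured 5984, 3855, 4457 and 8016 in vehicle and 8879, 13242, 15386 and 8042 in the combination (1.04 ± 0.34, adjusted p = 0.146), and CCND3 had 0.73 ± 0.23 (adjusted p = 0.138).

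Among PI3K pathway components, PIK3R3 was the 1 of 23 that passed. It encodes a regulatory subunit that holds the catalytic subunit at activated receptors. PIK3R3 measured 1293, 1599, 1466 and 1244 in vehicle and 819, 742, 603 and 575 in the combination. All combination tumours lay below all vehicle tumours, a 2.06-fold lower level (-1.04 ± 0.20, adjusted p = 0.0361), and its change with 1 tumour left out stayed within -1.13 to -0.96. The drug target PIK3CA measured 382, 435, 845 and 357 in vehicle and 559, 297, 599.8 and 630.1 in the combination (0.08 ± 0.32, adjusted p = 0.910). Vehicle 3 was the highest of the 8 and the groups overlapped. PIK3CB had -0.40 ± 0.26 and PIK3CD 0.50 ± 0.30, with adjusted p of 0.425 and 0.381. PDPK1, the kinase that activates AKT, had -0.74 ± 0.26 (adjusted p = 0.159), and the translation repressor EIF4EBP1 had 1.14 ± 0.38 (0.152). The pathway list had a median of 0.07 with 13 of 23 above 0.

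FOXO targets had a median of 0.25 with 20 of 27 above 0 (0.42 without vehicle 3), and C10orf10 was the member that passed. C10orf10, also called DEPP, is a FOXO-induced gene of starved cells. It measured 54.6, 31.5, 28.1 and 61.5 in vehicle and 183, 252, 272 and 263 in the combination, which is 5.66-fold higher with no overlap (2.50 ± 0.43, adjusted p = 0.0271). Its mean was 152 ± 69.8 with alpelisib alone (SD, n = 4) and 79.5 ± 64.4 with nintedanib alone (SD, n = 5). CITED2 (0.93 ± 0.24, adjusted p = 0.0973), PIK3IP1, a PI3K inhibitor protein (0.96 ± 0.27, 0.106), and PDK4, a brake on pyruvate oxidation (1.52 ± 0.53, 0.161), had separate ranges in the 2 groups and did not pass. The insulin receptor INSR, another FOXO target, was at 187, 210.3, 279 and 198 in vehicle and 175, 113, 122 and 146 in the combination (-0.65 ± 0.24, adjusted p = 0.172).

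Receptor tyrosine kinases of the tumour cells had a median of -0.01 with 8 of 16 above 0 and none passed. FGFR1, FGFR2 and FGFR3, targets of nintedanib, had changes of -0.17 ± 0.23, 0.06 ± 0.27 and -0.10 ± 0.25, with adjusted p of 0.724, 0.926 and 0.861. FGFR3 measured 5411, 5248, 3701 and 7239 in vehicle and 3872, 6949, 5309 and 4085 in the combination, with overlapping groups. AXL, a receptor of the TAM family, measured 397, 218, 622 and 380.1 in vehicle and 1111, 864, 796 and 655 in the combination without overlap (1.15 ± 0.32, adjusted p = 0.104), with human reads at 43.3% of the mouse reads under the same name. ERK output genes had a median of 0.08 and none of 22 passed. DUSP4, a phosphatase that ERK induces, had -0.63 ± 0.23 (adjusted p = 0.172) and ETV5 had -0.72 ± 0.30 (0.215). EGF family ligands had 3 of 8 above 0 (median -0.25, -0.13 without vehicle 3, -0.14 without combination 4 and 0.05 without both), with EGF at 69.6, 72.8, 64.2 and 40.8 in vehicle and 33.7, 13.7, 32.4 and 31.4 in the combination (-1.17 ± 0.33, adjusted p = 0.103) and NRG1 at 0.85 ± 0.32 (0.176).

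Several single genes rose in the tumour cells outside these lists. CDA, cytidine deaminase of pyrimidine salvage, measured 5.46, 8.02, 8.02 and 24.05 in vehicle and 70.6, 69.1, 69.8 and 58.8 in the combination, 6.34-fold higher (2.66 ± 0.44, adjusted p = 0.0271). TNNT1, a troponin, measured 36.9, 13.8, 6.02 and 44.1 in vehicle and 139, 103, 174 and 122 in the combination (2.70 ± 0.51, adjusted p = 0.0361). RRAD, a Ras-related GTPase, measured 75.1, 26.9, 66.2 and 136 in vehicle and 228, 419, 395 and 442 in the combination (2.44 ± 0.48, adjusted p = 0.0374). In all 3 genes every combination tumour was above every vehicle tumour. EMP3, an epithelial membrane protein, rose 4.86-fold (2.28 ± 0.43, adjusted p = 0.0361), from 121 ± 49.03 to 562 ± 125 (SD, n = 4 each). The peptide hormone genes GAST, for gastrin, and GAL, for galanin, rose 4.66-fold and 4.39-fold (2.22 ± 0.43 and 2.13 ± 0.42, adjusted p = 0.0361 and 0.0399). SLAMF9, an immune-type surface receptor, measured 9.56, 4.01, 10.03 and 23.4 in vehicle and 79.3, 60.3, 88.9 and 77.1 in the combination, in human reads (2.81 ± 0.52, adjusted p = 0.0361). Its human reads were 8.86% of the mouse reads under the same name, and the part of mouse reads in this result was not tested.

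Of the 45 human calls with a mouse namesake, 5 had more mouse reads, against 838 of 11478 tested human genes with a namesake. These 5 were SLAMF9, TAGLN, IGFBP2, FXYD5 and TUBB3, all higher with the combination. The human list of host cell markers, kept as a check of carry-over, had 8 of 12 tested members above 0 with a median of 0.19, and 1 of them passed. The member that passed had the highest change of all called human genes, 3.81. The list's median ran from 0.06 without vehicle 1 to 0.42 without vehicle 3. PECAM1, CDH5, KDR and PTPRC did not reach the filter in human reads, while 12 of the 20 listed markers did. Of the 10 tested markers with a mouse namesake, 9 had more mouse reads. The summed level of that list ran from 2936 to 8070 in vehicle and from 4785 to 8728 in the combination. Its part in the human results was not tested.

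Interferon-stimulated genes had 26 of 34 members above 0 (median 0.24), and IFITM1 and IFITM3 passed. Without vehicle 2 the median was 0.10 with 20 of 34 above 0, and without combination 2 it was 0.14. These membrane proteins restrict virus entry. IFITM3 measured 6001, 4651, 4331 and 7323 in vehicle and 11685, 21447, 18038 and 18959 in the combination, 3.14-fold higher without overlap (1.65 ± 0.28, adjusted p = 0.0271). IFITM1 rose 2.92-fold (1.54 ± 0.29, adjusted p = 0.0361) and IFITM2, named after its values were seen, 3.05-fold (1.61 ± 0.28, adjusted p = 0.0271). The 3 genes are close relatives, so reads could be split between them. ISG15 had 1.48 ± 0.44 (adjusted p = 0.124), with vehicle tumours at 4911, 3504, 1209.7 and 5503 and combination tumours at 4033, 13295, 9175 and 13956, which overlapped. CCL5, a T cell and monocyte attractant, was the 1 of 28 chemokine and cytokine genes that passed. It measured 1011, 908, 1061 and 2292 in vehicle and 3073, 6293, 2712 and 4285 in the combination (1.66 ± 0.35, adjusted p = 0.0484). The chemokine list had a median of 0.02 and MHC class I genes 0.45 (0.26 without vehicle 3), with 11 of 16 above 0 and none called.

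Other calls were named only after their values were seen. IGFL1, a growth factor-like peptide, rose 4.34-fold (2.12 ± 0.36, adjusted p = 0.0271) and measured 7678, 9513, 10483 and 6750.3 in the combination against 2785, 1627, 1239.7 and 2586 in vehicle. The metallothioneins MT2A and MT1X, which bind zinc and copper, rose 4.19-fold and 4.10-fold (2.07 ± 0.42 and 2.04 ± 0.42, adjusted p = 0.0428 and 0.0450); they share similar sequence. The actin-associated proteins ZYX, FHL3, PDLIM4 and PARVB had changes of 1.26 ± 0.26, 1.35 ± 0.27, 1.49 ± 0.31 and 1.39 ± 0.27, with adjusted p of 0.0464, 0.0388, 0.0485 and 0.0388. The clock gene PER1 measured 503, 313, 602 and 459 in vehicle and 1209, 1052, 1707 and 1552 in the combination (1.57 ± 0.27, adjusted p = 0.0271). PER1 was also the only name called in both tables, among 9528 tested in both.

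Angiogenic ligands of the tumour cells had 16 of 22 members above 0 (median 0.59, with alpelisib alone 0.40 and nintedanib alone 0.32), and none passed. The median was 0.36 without vehicle 2 and 0.37 without combination 2. PGF, placental growth factor, measured 343, 67.6, 156 and 347 in vehicle and 402, 559.6, 675 and 819.6 in the combination without overlap (1.65 ± 0.48, adjusted p = 0.112). VEGFB, EFNA1, ANGPTL4 and VEGFC had 1.03 ± 0.28, 1.19 ± 0.31, 1.54 ± 0.56 and 1.42 ± 0.45, with adjusted p of 0.103, 0.0973, 0.172 and 0.136. VEGFA had -0.43 ± 0.44 (adjusted p = 0.622). Glycolysis genes were above 0 in 23 of 25 (median 0.37) and hypoxia genes in 18 of 23 (0.31). Without vehicle 2 those medians were 0.24 and 0.02, with 13 of 23 hypoxia genes above 0, and the hypoxia median was 0.20 without combination 1. ALDOA, aldolase, had 1.18 ± 0.27 (adjusted p = 0.0744), and the hypoxia markers CA9 and EGLN3 had 1.31 ± 0.32 and 1.25 ± 0.37 (0.0869 and 0.117). CA9 measured 1123, 383, 835 and 1026 in vehicle and 1856, 1873, 1801 and 2227 in the combination, with vehicle 2 the lowest. No gene of those lists passed.

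All 42 cytosolic ribosomal protein genes and all 28 respiratory chain genes had changes above 0 in human reads (medians 1.15 and 0.88), and none passed. Those medians were 0.71 and 0.45 without vehicle 3, and 0.62 and 0.40 without vehicle 3 and combination 4. RPS28 measured 3293, 3388, 652 and 3360.2 in vehicle and 5507, 7746, 8401 and 12311 in the combination (1.87 ± 0.44, adjusted p = 0.0841). Vehicle 3, which had the largest share of Rn45s and Lars2 reads and the fewest human reads, was the lowest of the 8 and combination 4 the highest. The part of library composition in this pattern was not tested. The mesenchymal list had 18 of 22 above 0 (median 0.41, 0.74 without vehicle 3 and combination 4), and LGALS1 had 2.00 ± 0.52 (adjusted p = 0.0973). Mouse reads outnumbered human reads under the same name for 12 of the 22, against 838 of 11478 tested human genes with a namesake. Cholesterol synthesis (median 0.00), fatty acid synthesis (-0.19), epithelial adhesion (-0.07), amino acid and integrated stress (0.12) and unfolded protein response genes (-0.07) had no call. Human list medians within 0.2 of 0 moved by over 1.5 times or changed sign without single tumours, so they give no direction.

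**Figure D3:**
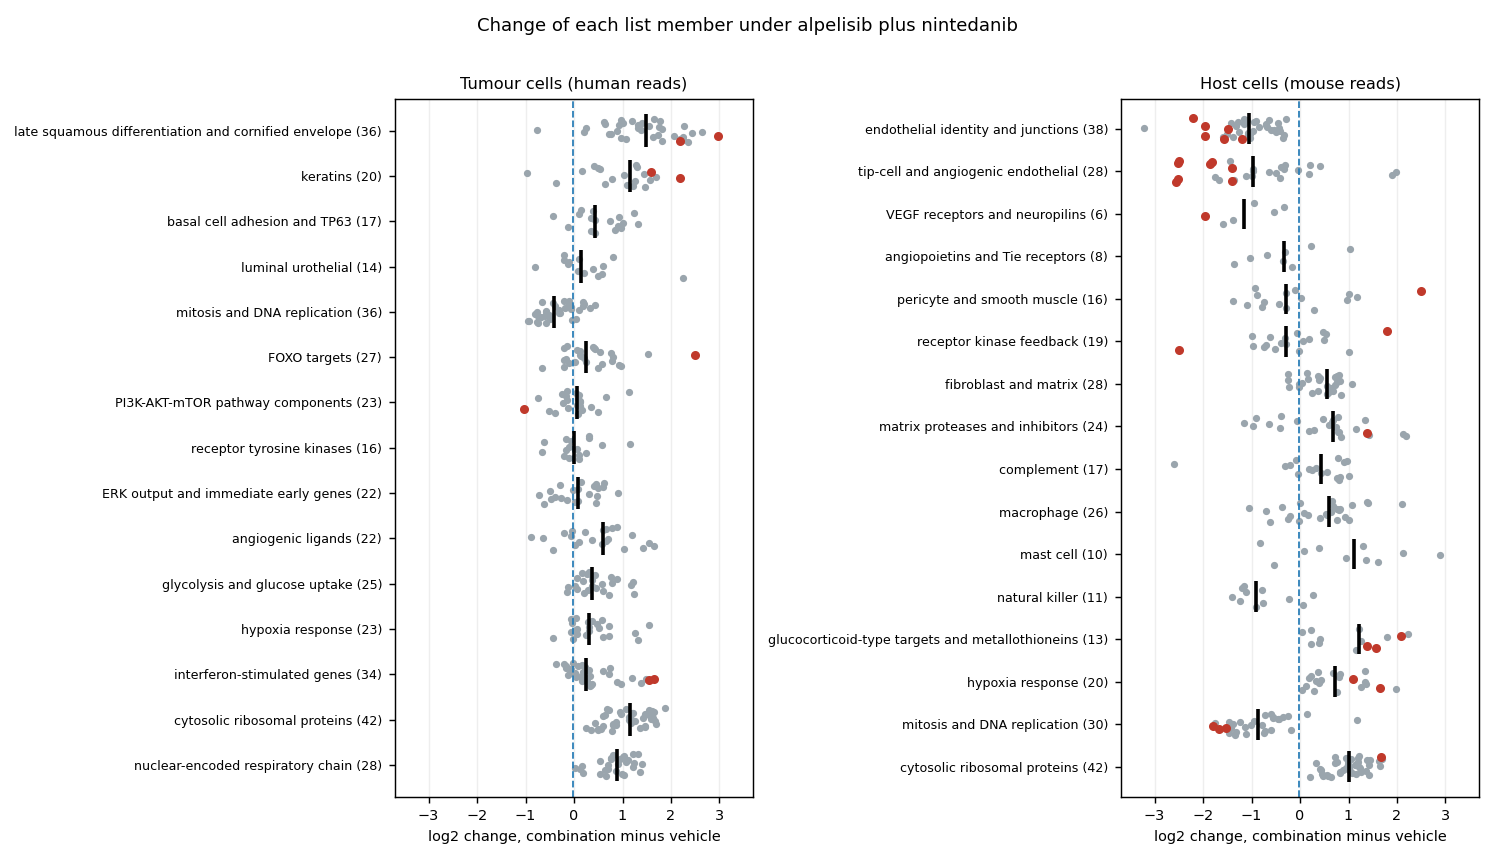
Log2 change of every tested member of the lists, combination minus vehicle (horizontal axis), for tumour cells on the left and host cells on the right. Grey points did not pass and red points passed the adjusted test, black bars are list medians, dashed lines the median of all tested genes (-0.03 and -0.02), and numbers in brackets count the tested members. Squamous genes and keratins lie to the right in tumour cells, and endothelial and tip-cell genes lie to the left in host cells.

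In mouse reads, the combination tumours had less of the endothelial genes Cdh5, Pecam1, Nos3 and Flt4 and of the sprouting genes Apln and Dll4. They had more Crabp1, Twist2 and Osr2, Tsc22d3 and Per1, and the hypoxia gene Ndrg1. Osr2, Tsc22d3, Per1 and Ndrg1 had more human reads under the same name, and the part of tumour reads was not tested. Of 11831 mouse genes tested, 47 were higher (0.397%) and 45 lower (0.38%), 0.778% in all, by limma with Benjamini-Hochberg adjustment. At an unadjusted p under 0.05, 1957 differed (16.5%). edgeR called 69 genes and DESeq2 473. All 69 edgeR calls were among the 92. In bulk tumours, fewer cells of a type and less RNA per cell cannot be told apart.

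The mouse count also moved with single tumours. It was 5 without combination 4, 18 without vehicle 4, 19 without combination 3, and 41, 44 and 45 without vehicle 1, vehicle 2 and combination 2. It was 83 without vehicle 3, 106 without combination 1, and 16 without vehicle 3 and combination 4 together. In that last fit 47 of the 92 had a change above 0, the same number as with all tumours. The 92 were chosen from these same tumours, so this is no independent support. Apold1, Crabp1, Kif20a and Prc1 passed in all 8 fits that left out 1 tumour.

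None of the 38 tested endothelial identity and junction genes had a change above 0, against 48.2% of all tested mouse genes. Their median log2 change was -1.05, and -0.77 without vehicle 3 and combination 4. Bcl6b, Nos3, Flt4, Cdh5, Mmrn2 and Pecam1 passed, and 18 of the 38 lay in the combination below every vehicle tumour, against 4.74% of all genes. Without vehicle 3 and combination 4 together, none of the 38 passed. With 1 tumour left out, Cdh5 and Mmrn2 passed in 1 of 8 fits, Nos3 and Pecam1 in 2, Bcl6b in 4 and Flt4 in 6. The summed level of the list ran from 7273 to 12398 normalised counts in vehicle and from 4305 to 5905 in the combination.

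Cdh5, VE-cadherin of endothelial junctions, measured 536, 389, 1173 and 594 in vehicle and 238, 233, 255 and 128 in the combination. The groups did not overlap, with vehicle 3 highest and combination 4 lowest. Cdh5 was 2.98-fold lower (-1.58 ± 0.35, adjusted p = 0.0415), and -1.04 (adjusted p = 0.188) without those tumours. Pecam1, the platelet and endothelial adhesion molecule, measured 820.1, 593, 1040.3 and 878 in vehicle and 351, 504, 357 and 259 in the combination, 2.28-fold lower (-1.19 ± 0.27, adjusted p = 0.0432), and was named after its values were seen. Nos3, the endothelial nitric oxide synthase, measured 96.5, 80.6, 103 and 70.2 in vehicle and 26.9, 36.2, 33.2 and 6.23 in the combination (-1.96 ± 0.41, adjusted p = 0.0354). Bcl6b, an endothelial transcriptional repressor, and Mmrn2, a matrix protein of vessels, were 4.62-fold and 2.81-fold lower (adjusted p = 0.0218 and 0.0354). Reads under these names in the human table were few: the PECAM1 reads came to 1.12% of the Pecam1 reads and CDH5 had none in these 8 tumours.

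Among genes of tip cells and angiogenic endothelium, Apln, Apold1, Kcne3, Clca5, Nes, Trp53i11, Notch4 and Dll4 passed among 28 tested. Of the 28, 23 had a change below 0 (median -0.98). Without vehicle 3 and combination 4 the median was -0.63, 9 of the 28 were above 0 and 1 passed. Apln, the apelin precursor secreted by tip cells, measured 423, 369.5, 519 and 606 in vehicle and 119.8, 52.3, 86.1 and 72.3 in the combination, 5.89-fold lower without overlap (-2.56 ± 0.42, adjusted p = 0.0126). Apold1, an endothelial early response gene, measured 139, 99.7, 138 and 81.6 in vehicle and 13.01, 28.2, 18.5 and 17.4 in the combination (-2.53 ± 0.35, adjusted p = 0.00562). Its adjusted p stayed within 0.00883 to 0.0263 with any 1 tumour left out. Dll4, the Notch ligand of tip cells, measured 229, 152, 248 and 215 in vehicle and 70.6, 99.6, 83.6 and 63.6 in the combination (-1.40 ± 0.32, adjusted p = 0.0452), was named after its values were seen and did not pass in any fit that left out 1 tumour. The Notch receptor Notch4 was 2.64-fold lower (-1.40 ± 0.30, adjusted p = 0.0367). It also passed in none of those 8 fits, where its lowest adjusted p was 0.0619. Kcne3, a potassium channel subunit, Clca5, of the chloride channel regulator family, and Nes, the filament nestin, were 5.74-fold, 5.64-fold and 3.64-fold lower (adjusted p = 0.0416, 0.0126 and 0.0432). With 1 tumour left out, Kcne3 passed in none of the 8 fits (lowest adjusted p 0.0544) and Nes in 2. Trp53i11 was 3.51-fold lower (-1.81 ± 0.30, adjusted p = 0.0126). Adm, which encodes the vasodilator adrenomedullin, and Pgf, also on the list, had positive changes and did not pass (1.99 ± 0.48 and 1.90 ± 0.50, adjusted p = 0.0584 and 0.0761).

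Outside the lists, Pcdh12, an endothelial protocadherin, measured 79.9, 64.1, 96.5 and 74.3 in vehicle and 12.1, 28.2, 27.1 and 9.97 in the combination, 4.26-fold lower (-2.09 ± 0.40, adjusted p = 0.0232). Ch25h, which makes the oxysterol 25-hydroxycholesterol, measured 127, 178, 115 and 229.8 in vehicle and 33.4, 70.4, 11.1 and 31.2 in the combination (-2.33 ± 0.45, adjusted p = 0.0238). Ttc9 was 4.22-fold lower (-2.08 ± 0.45, adjusted p = 0.0367). No group overlapped for these 3. Gja5, a gap junction protein of arterial endothelium, named after its values were seen, measured 30.3, 24.1, 18.4 and 30.6 in vehicle and 6.50, 7.04, 0 and 2.49 in the combination (-2.79 ± 0.60, adjusted p = 0.0360).

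The 6 genes listed with the VEGF receptors and neuropilins all had changes below 0 (median -1.16), and Flt4 passed. Without vehicle 3 and combination 4 the median was -0.75, 1 of the 6 was above 0 and none passed. Flt4, the VEGF receptor of lymphatic and sprouting endothelium, measured 131, 76.2, 271 and 122 in vehicle and 30.7, 34.2, 51.7 and 24.9 in the combination, 3.87-fold lower without overlap (-1.95 ± 0.36, adjusted p = 0.0216). Kdr, the main VEGF receptor of vessels, measured 247, 239, 581 and 302 in vehicle and 167, 112, 117 and 56.1 in the combination. Its groups did not overlap, yet the change of -1.59 ± 0.42 had an adjusted p of 0.0774. Flt1 measured 168, 135, 503 and 183 in vehicle and 92.9, 63.4, 139 and 54.8 in the combination, where combination 3 exceeded vehicle 2 (-1.37 ± 0.37, adjusted p = 0.0774). Plxnd1, a plexin, and the coreceptor Nrp1 had -0.94 ± 0.23 and -0.54 ± 0.28 (adjusted p = 0.0598 and 0.359). The PDGF receptors Pdgfra and Pdgfrb had 0.72 ± 0.38 and 0.29 ± 0.30 (adjusted p = 0.357 and 0.658), with Pdgfrb highest in vehicle 3 and combination 1 of their groups. Fgfr1 had 0.56 ± 0.25 and Fgfr2 -0.08 ± 0.44 (0.256 and 0.947), and Pik3ca had 0.18 ± 0.28 (0.779). Angpt2, an antagonist of the Tie receptors released by active endothelium, measured 262, 121, 367 and 300.0 in vehicle and 105, 96.6, 118 and 63.6 in the combination (-1.37 ± 0.34, adjusted p = 0.0673), and Tie1 had -1.03 ± 0.29 (0.0904). The Tie and angiopoietin list had 2 of 8 above 0 (median -0.33, from -0.59 without vehicle 4 and -0.57 without combination 1 to -0.20 without vehicle 2) and the PDGF and FGF list 10 of 18 (0.17, from 0.09 without vehicle 1 to 0.31 without vehicle 3), neither with a call.

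Spry4 and Ier3 were the receptor kinase feedback genes that passed, in opposite directions. Spry4, a Sprouty inhibitor that ERK signalling induces, measured 84.1, 71.1, 106 and 78.9 in vehicle and 28.8, 14.1, 11.1 and 8.72 in the combination, 5.61-fold lower without overlap (-2.49 ± 0.44, adjusted p = 0.0175). Spry1 had 1.01 ± 0.32 (adjusted p = 0.119), with every combination tumour above every vehicle tumour. Ier3, an early response gene, measured 131, 102, 59.7 and 114 in vehicle and 321, 292, 419 and 350.2 in the combination, 3.48-fold higher (1.80 ± 0.34, adjusted p = 0.0230). Mouse Ier3 reads came to 8.10% of the human IER3 reads, and the part of tumour reads in its rise was not tested. The feedback list had a median of -0.28, -0.18 without combination 2, -0.06 without vehicle 3, 0.00 without combination 4 and 0.09 without vehicle 3 and combination 4.

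Of 16 pericyte and smooth muscle genes, 6 had a change above 0 (median -0.29) and 1 passed. The median was -0.19 without vehicle 1 or combination 3 and -0.48 without vehicle 4. Ndufa4l2, a respiratory chain-associated gene induced by low oxygen and marking pericytes, rose 5.60-fold (2.49 ± 0.42, adjusted p = 0.0127). It measured 92.3, 55.9, 39.04 and 62.5 in vehicle and 303, 172, 434 and 579.6 in the combination, without overlap. Human reads under this name were more numerous, with the mouse reads at 3.80% of them. Mcam had -1.39 ± 0.32 (adjusted p = 0.0521), while the contractile genes Acta2 and Tagln had 0.98 ± 0.36 and 1.17 ± 0.41 (0.181 and 0.160).

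**Figure D4:**
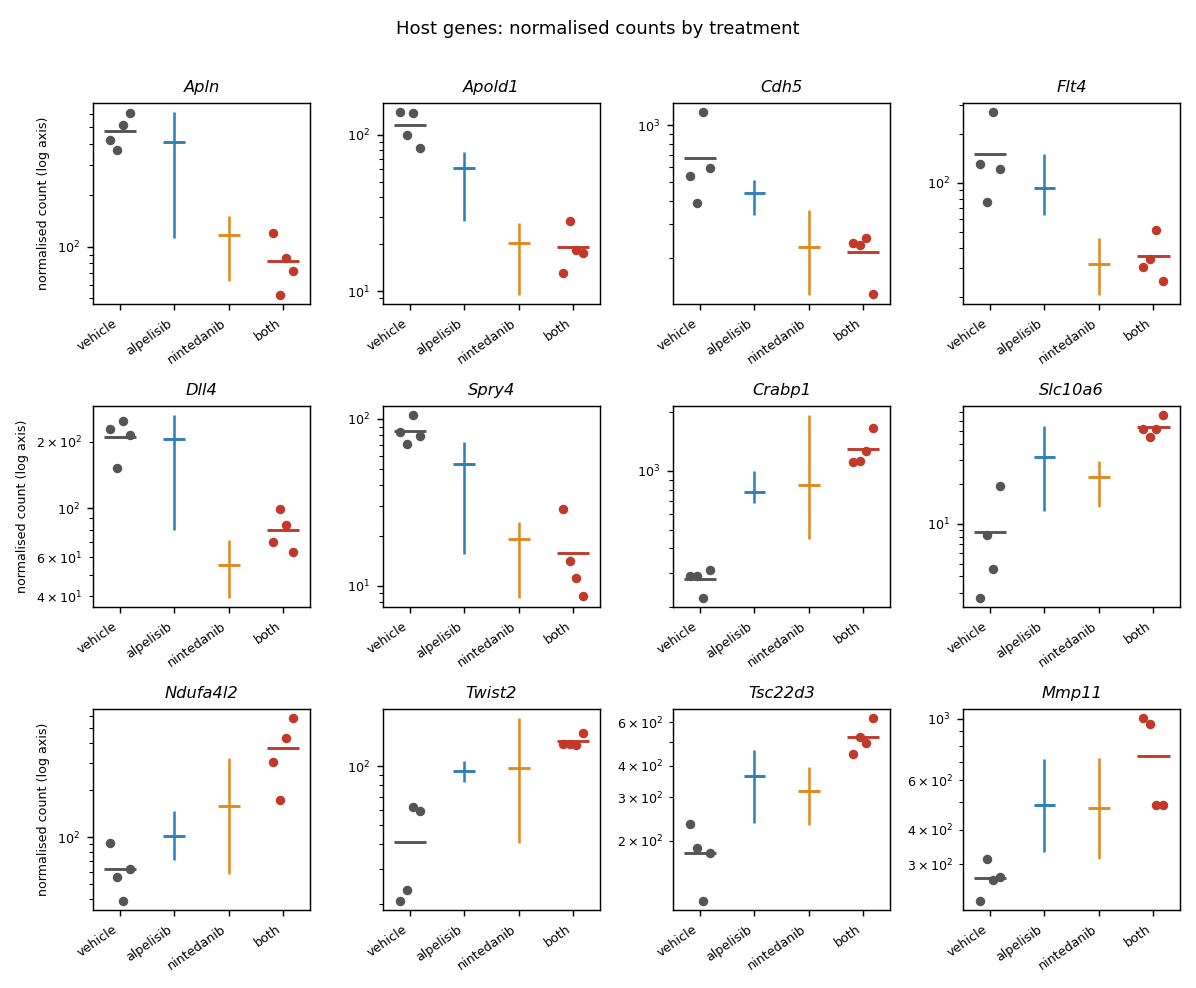
Normalised counts of 12 host genes on log axes, by treatment. Points are single tumours of vehicle and of both drugs with their mean as a bar, and vertical lines span the lowest to the highest tumour of alpelisib alone (n = 4) and nintedanib alone (n = 5) with a tick at the mean. Apln, Apold1, Cdh5, Flt4, Dll4 and Spry4 are lower and the other 6 genes higher in all 4 tumours with both drugs than in any vehicle tumour.

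Crabp1, which binds retinoic acid in the cytoplasm, had the smallest unadjusted p of the host genes. It measured 289, 288, 223 and 311 in vehicle and 1118, 1129, 1262 and 1658 in the combination. Every combination tumour was above every vehicle tumour, a 4.62-fold difference (2.21 ± 0.30, adjusted p = 0.00562), and CRABP1 reads in the human table came to 0.882% of the Crabp1 reads. Twist2, a transcription factor of mesenchyme and dermis, measured 20.7, 23.5, 62.00 and 58.8 in vehicle and 129, 129.7, 128 and 147 in the combination, 3.57-fold higher (1.84 ± 0.37, adjusted p = 0.0283). Osr2, a zinc finger factor of mesenchyme, measured 34.5, 45.7, 25.3 and 33.3 in vehicle and 109.6, 121, 133 and 103 in the combination, 3.35-fold higher (1.74 ± 0.29, adjusted p = 0.0126). Dlx5, a homeobox factor named after its values were seen, had 1.71 ± 0.38 (adjusted p = 0.0429). Slc10a6, a steroid sulfate transporter, measured 2.76, 8.25, 4.59 and 19.1 in vehicle and 52.03, 45.3, 51.7 and 66.1 in the combination, 6.86-fold higher (2.78 ± 0.48, adjusted p = 0.0132). Mouse Osr2 reads came to 39.3% of the human OSR2 reads and those of Dlx5 to 45.4%, and the part of tumour reads in those changes was not tested.

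Fibroblast and matrix genes had 23 of 28 members above 0 (median 0.56) and none passed. Every combination tumour was above every vehicle tumour for 3 of the 28, against 4.89% of all genes. Thy1, a fibroblast surface protein, measured 764, 606, 374 and 664 in vehicle and 1476, 979, 1119 and 1421 in the combination without overlap (1.08 ± 0.32, adjusted p = 0.103). Col1a1 ran from 6784 to 39462 in vehicle and from 14496 to 30294 in the combination (0.85 ± 0.46, adjusted p = 0.369), and vehicle 3 was its highest tumour. Among 24 matrix proteases and inhibitors, Mmp11, stromelysin-3 of tumour stroma, passed. It measured 222, 314, 264 and 271 in vehicle and 1004, 959, 488 and 491 in the combination, 2.60-fold higher (1.38 ± 0.30, adjusted p = 0.0367), and did not pass with any 1 tumour left out, where its adjusted p ran from 0.0574 to 0.0949. Mmp3 and Mmp10 had 2.20 ± 0.64 and 2.13 ± 0.55 (adjusted p = 0.0989 and 0.0731), and the urokinase gene Plau had -1.16 ± 0.29 (0.0654). Complement genes had 12 of 17 above 0 (median 0.43, and 0.67 without vehicle 3 and combination 4) and none passed.

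Glucocorticoid-type targets and metallothioneins had all 13 tested members above 0 (median 1.21), and Tsc22d3, Per1 and Mt1 passed. Without vehicle 3 and combination 4 the median was 1.05, 11 of 13 were above 0 and none passed. With 1 tumour left out, Tsc22d3 passed in 7 of 8 fits, Per1 in 4 and Mt1 in 3. Tsc22d3, the glucocorticoid-induced leucine zipper, measured 234, 187, 115 and 178 in vehicle and 447, 524, 493 and 623 in the combination, 2.98-fold higher without overlap (1.58 ± 0.25, adjusted p = 0.0111). The clock gene Per1 measured 95.1, 62.2, 96.5 and 66.6 in vehicle and 190.5, 142, 245 and 277 in the combination (1.39 ± 0.25, adjusted p = 0.0203). Mt1, a metallothionein, measured 216, 180.3, 80.4 and 146 in vehicle and 399, 444, 680.3 and 1245 in the combination (2.08 ± 0.42, adjusted p = 0.0297), and Mt2 had 2.23 ± 0.52 (adjusted p = 0.0525). Fkbp5, a classical glucocorticoid target, had 1.16 ± 0.36 (adjusted p = 0.119). The clock repressor Nr1d1, named after its values were seen, was 2.94-fold higher (1.56 ± 0.27, adjusted p = 0.0151). All 11 list members with a human namesake had more human reads, as did 8692 of 10336 tested mouse genes with a namesake. Mouse reads of Tsc22d3 and Per1 were 31.4% and 14.8% of the human reads. The part of tumour reads was not tested.

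Hypoxia genes of the host had all 20 members above 0 (median 0.72, and 0.73 without vehicle 3 and combination 4), against medians of 0.15 with alpelisib alone and 0.14 with nintedanib alone. Ndrg1, a stress and hypoxia-induced gene, measured 423, 209, 429 and 414 in vehicle and 1501, 841, 978 and 1251 in the combination, 3.14-fold higher without overlap (1.65 ± 0.31, adjusted p = 0.0224). P4ha2, a collagen prolyl hydroxylase, measured 132, 102, 181 and 159 in vehicle and 343, 261, 294 and 309 in the combination (1.09 ± 0.21, adjusted p = 0.0230). Bnip3 had 1.26 ± 0.31 (adjusted p = 0.0636). All 18 members with a human namesake had more human than mouse reads, as did 8692 of 10336 tested mouse genes with a namesake. Mouse Ndrg1 reads came to 1.48% of the human reads. Whether human reads entered these counts was not tested.

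None of the immune cell lists held a gene that passed. Macrophage genes had 19 of 26 members above 0 (median 0.59, and 0.26 without vehicle 3 and combination 4), and their members differed in direction. Cd68, a lysosomal marker, measured 540.3, 570.2, 326 and 533 in vehicle and 689, 809.6, 915 and 853 in the combination (0.75 ± 0.24, adjusted p = 0.119), and Trem2 had 1.39 ± 0.47 (0.144). Emr1, which encodes F4/80, measured 937, 1011, 840.5 and 683 in vehicle and 635, 533, 531 and 532 in the combination (-0.63 ± 0.19, adjusted p = 0.115). Mpeg1 had -0.70 ± 0.21 (0.106) and the chemokine receptor Cx3cr1 -1.06 ± 0.35 (0.139). Each of these 5 genes had separate ranges in the 2 groups. They were the only such members of the list: 2 of 26 lay higher and 3 lower, against 4.89% and 4.74% of all genes. Natural killer genes had 2 of 11 above 0 (median -0.90) and T cell genes none of 9 (-0.92). The natural killer median was -0.56 without vehicle 3 and -0.59 without vehicle 4. The T cell median was -1.58 without vehicle 2, -0.51 without vehicle 3 and -0.11 without vehicle 4, with 3 of 9 above 0 in the last. The summed level of the T cell list ran from 138 to 613 in vehicle and from 139 to 212 in the combination, and the defining Cd3e was at 0, 0.635, 39.04 and 36.5 in vehicle and 1.86, 0, 0 and 7.48 in the combination. Mast cell genes had 8 of 10 above 0 (median 1.12). That median was 0.15 without vehicle 2 (6 of 10 above 0), 0.74 without vehicle 1, 1.85 without vehicle 3 and combination 4, and -0.22 over the 2 genes with a mean of at least 50. The mast cell list held the tryptase Tpsb2, at 16.5, 0.635, 0 and 23.7 in vehicle and 20.4, 58.3, 77.5 and 19.9 in the combination (2.88 ± 0.82, adjusted p = 0.0940). Neutrophil genes (median 0.22, from -0.07 without combination 4 to 0.58 without combination 3), dendritic cell genes (0.26, from 0.05 without vehicle 3 to 0.53 without combination 1), B and plasma cell genes (0.32 over 3 genes) and erythroid genes (-0.65 over 2 genes, and -0.05 without combination 1) had no call.

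Inflammatory chemokines of the host had 12 of 24 members above 0 (median 0.04, from -0.23 without combination 4 to 0.20 without vehicle 4). The interferon-induced Cxcl10 measured 101, 115, 250.3 and 442 in vehicle and 64.1, 49.3, 27.1 and 88.5 in the combination, without overlap (-1.83 ± 0.56, adjusted p = 0.115). The B cell attractant Cxcl13 measured 19.3, 3.17, 4.59 and 19.6 in vehicle and 43.7, 121, 92.3 and 49.9 in the combination (2.84 ± 0.88, adjusted p = 0.117), and Tnf had -0.98 ± 0.36 (0.174). Host interferon genes had 9 of 31 above 0 (median -0.14, and -0.30 without combination 4) and none passed, and host FOXO targets had 13 of 21 (0.26, and 0.17 without vehicle 4). Markers of neighbouring tissue spread widely: skeletal muscle genes summed to 1226 to 16542 in vehicle and 894 to 10896 in the combination (median change -1.38), and adipocyte genes to 328 to 892 and 247 to 1163 (-1.19), with no call. Without vehicle 1 the muscle median was -0.15 with 9 of 21 above 0, and over the other tumours left out it ran to -2.87 without combination 2. The adipocyte median ran from -1.99 without combination 2 to -0.58 without combination 3. Schwann and nerve genes had a median of -0.15 over 3 tested members, and 0.53 without combination 4.

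Mitotic genes and keratins also passed in mouse reads, where most reads of the same names were human. Kif20a, a mitotic kinesin, measured 53.8, 47.6, 52.8 and 39.7 in vehicle and 17.7, 10.1, 14.8 and 11.2 in the combination (-1.80 ± 0.27, adjusted p = 0.00739), with mouse reads at 4.33% of the human KIF20A reads. Ccna2 and Ccnb1, cyclins of S phase and mitosis, had -1.53 ± 0.30 and -1.67 ± 0.34 (adjusted p = 0.0237 and 0.0306), and Prc1, named after its values were seen, -1.74 ± 0.26 (0.00739). The mitotic list had 28 of 30 members below 0 (median -0.86), and all 30 had more human than mouse reads. In human reads, KIF20A had -0.77 ± 0.23 and CCNB1 -0.72 ± 0.22, of the same sign and without a call. Krt17, Krt14 and Krt19 passed upward (1.76 ± 0.29, 1.69 ± 0.37 and 1.57 ± 0.31, adjusted p = 0.0126, 0.0367 and 0.0242) with mouse reads at 14.2%, 30.9% and 0.251% of the human reads. The summed level of the 17 keratins and epithelial genes on that list ran from 38313 to 67193 in vehicle and from 83036 to 252888 in the combination (11 of 17 above 0, median 0.47, from 0.24 without vehicle 2 to 0.99 without vehicle 4). Krt42 had 1.66 ± 0.35 (0.0344) and no human namesake in the table. All 42 ribosomal protein genes had changes above 0 (median 1.02, and 0.54 without vehicle 3 and combination 4), all with more human reads, and Rps27 passed (1.68 ± 0.33, adjusted p = 0.0242). Over all tested mouse genes with a human namesake, 8692 of 10336 had more human reads. Among the 80 mouse calls with a namesake, 48 did, 31 of them higher and 17 lower with the combination. Whether these reads came from tumour cells was not tested.

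The comparisons with each drug alone test whether adding the other drug changed a gene. Against alpelisib alone, no human gene passed by limma (648 at an unadjusted p under 0.05), and none passed by edgeR or DESeq2. In mouse reads 1 gene passed (0.00845% of those tested), D930048N14Rik, an unnamed gene model mentioned after its values were seen. It measured 4.64, 5.03, 2.46 and 4.99 in the combination, against 23.4, 15.9, 18.4 and 25.1 in vehicle and a mean of 28.4 ± 0.948 with alpelisib alone (SD, n = 4), a difference of -2.51 ± 0.38 (adjusted p = 0.0410). edgeR called 0 genes there and DESeq2 26. Against nintedanib alone, no gene passed by limma in either table (556 human and 830 mouse genes at an unadjusted p under 0.05), no gene by edgeR, and 1 human and 30 mouse genes by DESeq2. A missed threshold does not show that the treatments act alike.

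For named genes the differences from each drug alone were estimated as follows. Apln differed by -2.13 ± 0.42 from alpelisib alone and by -0.51 ± 0.40 from nintedanib alone (adjusted p = 0.311 and 0.824). Cdh5 differed by -1.06 ± 0.35 and -0.01 ± 0.33 (0.591 and 0.998), and Dll4 by -1.24 ± 0.32 and 0.52 ± 0.30 (0.394 and 0.755). For these 3 vessel genes the nintedanib tumours averaged 118 ± 36.1, 226 ± 99.7 and 55.4 ± 11.7 (SD, n = 5), and the combination 82.6 ± 28.4, 214 ± 57.5 and 79.3 ± 15.8 (SD, n = 4). Per1 differed by 0.97 ± 0.25 and 1.28 ± 0.24 (0.410 and 0.272), with means of 106 ± 18.7 under alpelisib and 89.3 ± 32.4 under nintedanib against 213 ± 59.6 under both. Ndufa4l2 differed by 1.76 ± 0.42 and 1.38 ± 0.40 (0.338 and 0.547), and Crabp1 by 0.73 ± 0.30 and 0.82 ± 0.28 (0.761 and 0.584).

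In tumour cells, C10orf10 differed by 0.77 ± 0.43 from alpelisib alone and by 1.88 ± 0.41 from nintedanib alone (adjusted p = 0.943 and 0.988). PIGR differed by -0.81 ± 0.46 and -0.54 ± 0.43, KRT16 by 0.48 ± 0.46 and 0.92 ± 0.44, and PIK3R3 by -0.17 ± 0.20 and -0.55 ± 0.19, none of which passed. PDK4 differed from nintedanib alone by 2.70 ± 0.51 (adjusted p = 0.676), with means of 11.3 ± 7.98 under nintedanib and 67.3 ± 25.8 under both drugs. Against the same vehicle tumours, the endothelial list had medians of -0.22 with alpelisib, -0.76 with nintedanib and -1.05 with both, and the squamous list 1.44, 1.17 and 1.48. These single-drug comparisons share their vehicle tumours with the combination, so their values stand side by side only.

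**Figure D5:**
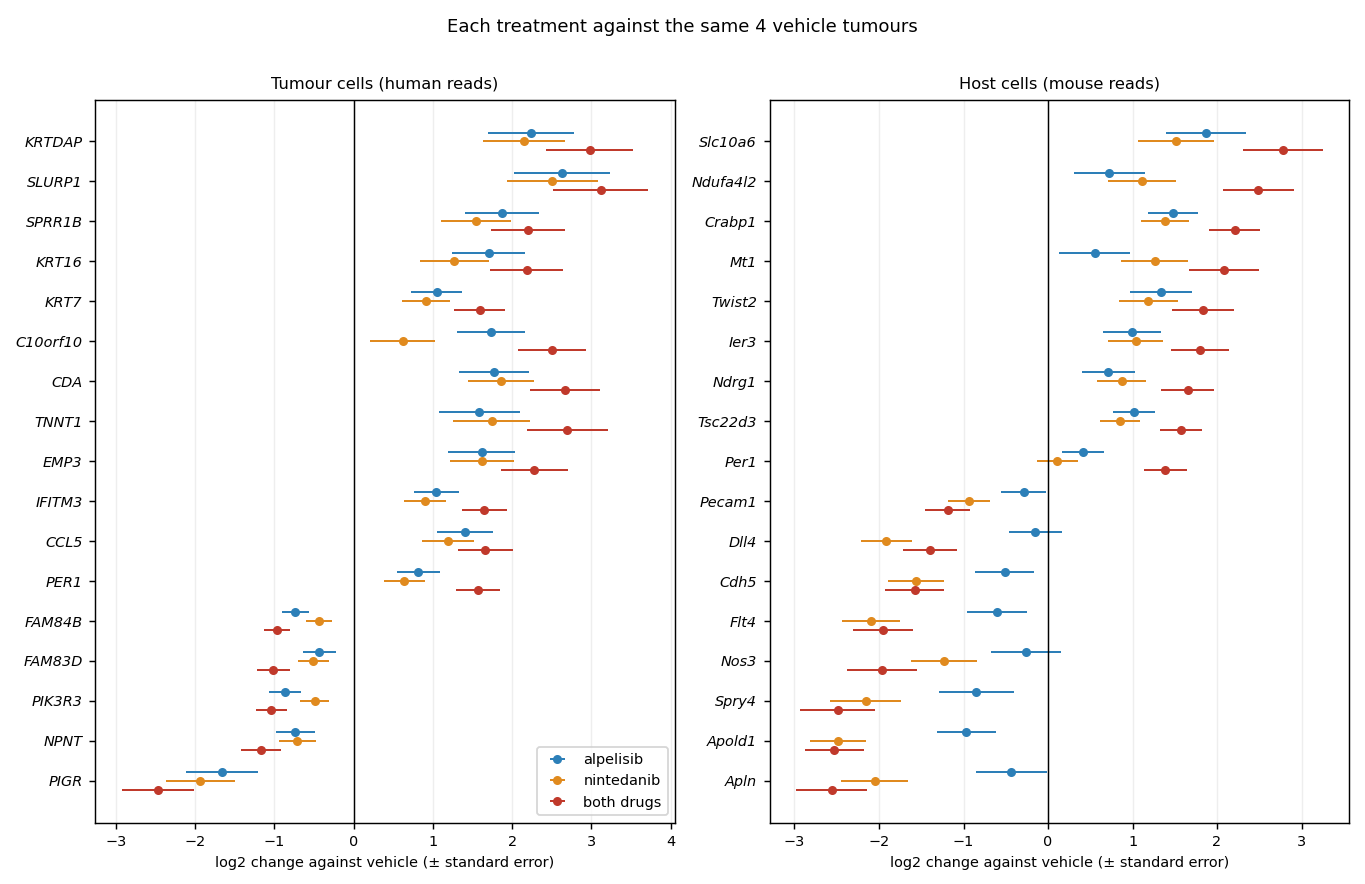
Log2 change against the same 4 vehicle tumours (horizontal axis, ± standard error) for alpelisib alone, nintedanib alone and both drugs, for 17 tumour-cell genes on the left and 17 host genes on the right. For Apln the points lie at -0.43 for alpelisib, -2.05 for nintedanib and -2.56 for both, while for Per1 the point for both drugs, 1.39, is to the right of alpelisib at 0.41 and nintedanib at 0.11.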

How the data were processed

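Polyadenylated RNA of 17 tumours was sequenced as paired 75-bp reads, per the labels' protocols. The authors mapped the reads separately to hg19 and mm10, and the submitters' processing notes name Bowtie, TopHat and DESeq2, without versions or settings. The deposited tables hold normalised counts, a depth-scaled signal per gene (23368 human and 23337 mouse genes). Whole reads were recovered from their steps (100% of values within 0.001 of a whole number) and gave the library depths in the report, where counting error is the least precision for low genes.

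Because the values are normalised, the main test was limma (3.58.1, R 4.3.3): log2(normalised count + 1), genes with a mean of at least 10 over 17 libraries, 1 mean per treatment group (nintedanib responders and non-responders apart, by the sample titles, which give 3 and 2 where the series text gives 2 and 3), 12 residual degrees of freedom, trended variance and Benjamini-Hochberg adjustment over all genes of a table. The comparison with nintedanib used the mean over all 5 nintedanib tumours. Per table, the text names up to 12 called genes per direction by size of change with a group mean of at least 50, up to 5 members per gene list by unadjusted p, and the drug targets. Genes that the rule names but that are not reported here include the human gene with the largest increase. Genes outside that rule are KRT13, KRT15, VEGFA and Col1a1, and those said to be named after their values were seen. IGFBP2, FXYD5 and TUBB3 are also outside it, named as human calls with more mouse reads. The groups, gene lists and named genes were chosen with earlier results of these data known. Alternatives were edgeR (4.0.16), DESeq2 (1.42.0) and limma-voom on recovered reads, other filters, array weights, a replicate block and leaving out tumours. No 2 libraries of a group were copies by a chi-square test of their reads. Scripts were tested on simulated data with 200 changed genes. Promoter, protein and genome sequence were not used here.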

Additional observations from a re-analysis of the deposited data

Results flagged for a closer look

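In 346 sets of 4 tumours (a measure in vehicle or in the combination), 32 had 1 tumour far from the other 3, its gap to the nearest being at least 0.83 of the whole range (9.25%, where chance alone gives about 1 in 20). Values are normalised counts, followed by the range of the other 3 tumours of the group where given.

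In human reads, vehicle 4 stood high for KRTDAP at 3367.56 (others 1060.79 to 1283.88), SLURP1 at 166.341 (others 22.0666 to 42.4087), KRT10 at 2607.34 (others 1253.35 to 1306.92), CDA at 24.0492 and CCL5 at 2292.03. Of these, KRTDAP, SLURP1, CDA and CCL5 are among the genes that rose with the combination, so this tumour lay nearest to the treated range. Vehicle 3 stood high for PIK3CA at 844.55 and low for VEGFB at 1037.13, RPS28 at 651.969 (others 3292.57 to 3388.11) and ATP5D at 240.727. Vehicle 2 stood low for ANGPTL4 at 123.214 (others 614.54 to 655.342). Combination 1 stood low for LY6D, a keratinocyte surface protein, at 11518.7 (others 28274.4 to 31215.5), and high for FGFR1 at 774.065. Combination 2 stood low for TAGLN at 578.923 and EGF at 13.669, and combination 4 low for CDA at 58.8233 and high for CA9 at 2227.44. LY6D and TAGLN were named after their values were seen.

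In mouse reads, vehicle 3 stood high for Mmrn2 at 342.168, Flt1 at 502.917 (others 134.61 to 183.297), Pdgfrb at 845.085 and Pik3ca at 328.389, and low for Cd68 at 326.093. Vehicle 2 stood low for Ndrg1 at 208.9 (others 413.559 to 429.432). Combination 1 stood high for Pdgfrb at 989.438 and Emr1 at 634.541, combination 2 high for Nes at 136.784, and combination 3 high for Prc1 at 38.1343 and low for D930048N14Rik at 2.46028. Combination 4 stood low for Cdh5 at 128.384 (others 233.337 to 254.639) and high for Twist2 at 147.08. Among library measures, vehicle 3 stood high for the share of Rn45s and Lars2 in mouse reads at 72.92% and for the mouse share of all reads at 40.63%, and vehicle 4 high for the mouse share without those features at 20.32%.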

How the results depend on the processing

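For combination against vehicle, the 52 human calls became 0 with no filter on low values, 34 with a minimum mean of 50, 7 when only the compared groups were fitted, 491 with DESeq2 and 1204 with array weights. The 92 mouse calls became 47, 60, 26, 473 and 463 in the same order. Without vehicle replicate 3 and combination replicate 4 together, 0 human and 16 mouse genes passed, 11 of the 16 among the 92. For combination against alpelisib, the 1 mouse call became 0 with a minimum mean of 50, edgeR, limma-voom, only the compared groups and without that pair of tumours, 4 with array weights and 26 with DESeq2. For combination against nintedanib, DESeq2 called 1 human and 30 mouse genes, and 1 mouse gene passed with no filter and 1 with only the compared groups. The causes of these changes were not tested.

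With 1 tumour left out, combination against vehicle gave 0 to 97 human and 5 to 106 mouse calls. Combination against alpelisib gave 0 human calls in every such fit and 0 to 13 mouse calls (13 without alpelisib replicate 1), and combination against nintedanib 0 human calls and 0 to 4 mouse calls (4 without combination replicate 1). The mouse share of all reads differed by -1.4 percentage points (combination minus vehicle), and by -5.048 to 4.175 with 1 tumour left out, reversing to 4.175 without vehicle 3, 0.9817 without combination 2 and 1.442 without combination 3 (exact permutation p = 0.514 to 0.914).

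Same-numbered vehicle and combination tumours did not deviate together (1 of 4 pairs with a correlation over 0.1 in each table, from -0.304 to 0.115 in human and -0.338 to 0.325 in mouse reads), so the numbers were not taken as pairs. With the replicate block, 29 human genes passed (27 of the 52), 46 mouse genes (44 of the 92), and 0 mouse genes against alpelisib.

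Among the called genes followed through the alternatives, which are those the report names except IGFBP2, FXYD5, TUBB3 and Gja5, none changed direction. These genes were called on the same tumours, so this is no independent support. Uncalled drug targets with changes near 0 did change direction. PIK3CA ranged from -0.0549 to 0.3587 with 1 tumour left out, reversing to -0.0216, -0.0549, -0.0063 and -0.03 without vehicle 1, vehicle 4, combination 3 and combination 4. FGFR2 ranged from -0.0538 to 0.2464 (-0.0509 and -0.0538 without combination 1 and combination 3), FGFR3 from -0.2639 to 0.0587 (0.0587 and 0.019 without vehicle 4 and combination 1), and Fgfr2 from -0.2304 to 0.0585 (0.0585 and 0.0342 without vehicle 4 and combination 2). Depth limits low genes most: vehicle 3 had 7429753 human reads and vehicle 1 had 2305198 mouse reads.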
